A study of Mus musculus with 18 samples.

Results

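The 10 genes described here are the immediate early genes Fos, Fosb, Fosl1, Fosl2, Jun, Junb, Jund, Egr1, Atf3 and Ier2, taken by name from a transcript table of the mouse whisker pad. The value of a gene was the sum of the deposited TPM (transcript abundance scaled for transcript length and library size) over its Ensembl transcripts, and these 10 were among 35071 genes so formed. In 9 adult mice of both sexes, several months old, the facial nerve was cut on the right side of the face (buccal and superior marginal branches), while on the left side the skin was opened and closed again with the nerve left whole. From 3 mice each at days 1, 3 and 7 after surgery, a punch of skin and muscle was taken from both rostral whisker pads, which gave 18 libraries in 6 groups of 3. The strain of these mice is not given in the sources used here. Both sides therefore carry an incision and differ in the nerve, and since the cut nerve was on the right in every mouse, side of the face and denervation cannot be told apart. Below, the 2 sides are called the denervated and the sham side.

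Immediate early genes are transcribed within minutes of a stimulus from factors already present in the cell, without new protein synthesis. Fos and Jun family proteins carry a basic leucine zipper (bZIP) and pair with each other to form the transcription factor AP-1, which binds DNA at AP-1 sites. Atf3 is a bZIP factor of the same kind that is induced by many stresses and after axon injury, Egr1 is a zinc finger factor, and Ier2 encodes a small nuclear protein. In skeletal muscle and skin these genes are known to answer to contraction, stretch and wounding.

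Reads behind each library, estimated from the steps in the lowest values, came to 10.6 to 33.0 M with a median of 14.8 M, and the values of a library summed to 833186 to 1143839. Myog, a muscle transcription factor known to rise after denervation, served as a check of the labels, and its value lay between 0.49 and 7.14 TPM in the 9 sham libraries and between 16.6 and 199.8 TPM in the 9 denervated ones. The punches differed in what they held. The summed level of 12 skeletal muscle markers ran from 5260 to 26100 TPM in sham libraries at day 1 and from 26600 to 30900 TPM at day 7, and from 7610 to 16900 TPM and 28800 to 31800 TPM on the denervated side. The sham library of day 1 mouse 1 was the lowest of all 18 in 10 of 15 marker lists, and in the denervated library of day 7 mouse 1 the summed level of 5 erythroid markers reached 191000 TPM. In such bulk samples, fewer cells of a type and less RNA per cell cannot be told apart.

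All 10 genes were measured in every library. In the 9 sham libraries Egr1 was highest at 26.3 ± 5.70 TPM (mean ± SD, n = 9, as for all levels in this paragraph), followed by Fosl2 at 25.6 ± 2.97 TPM, Ier2 at 22.6 ± 6.46 TPM and Jun at 19.0 ± 2.03 TPM. Jund (15.6 ± 3.21 TPM), Junb (14.3 ± 5.85 TPM) and Fos (10.1 ± 4.77 TPM) lay in the middle. Atf3 was at 6.23 ± 2.08 TPM, and Fosb (2.83 ± 2.40 TPM) and Fosl1 (1.69 ± 0.903 TPM) were lowest. Of the neighbours in this order, the step from Jun to Jund and that from Atf3 to Fosb were larger than the SD of either gene, and the other steps were within it. The median gene tested stood at 13.2 TPM. Some 1209 to 6717 reads lay behind Fosl2 in a library, but only 14 to 175 behind Fosl1 and 20 to 360 behind Fosb, so these 2 genes carry the most counting error.

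The members also differed in how steady they were. The SD of log2(TPM + 0.5) within groups was 0.11 for Fosl2, 0.17 for Egr1 and 0.22 for Jun, against a median of 0.22 over 14750 genes. It was 0.52 for Fos, 0.52 for Fosl1 and 0.50 for Junb, and it reached 1.02 for Fosb, which was above the SD of 97.2% of genes tested. Fosb ran from 0.542 to 7.27 TPM over the 9 sham libraries alone.

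**Figure D1:**
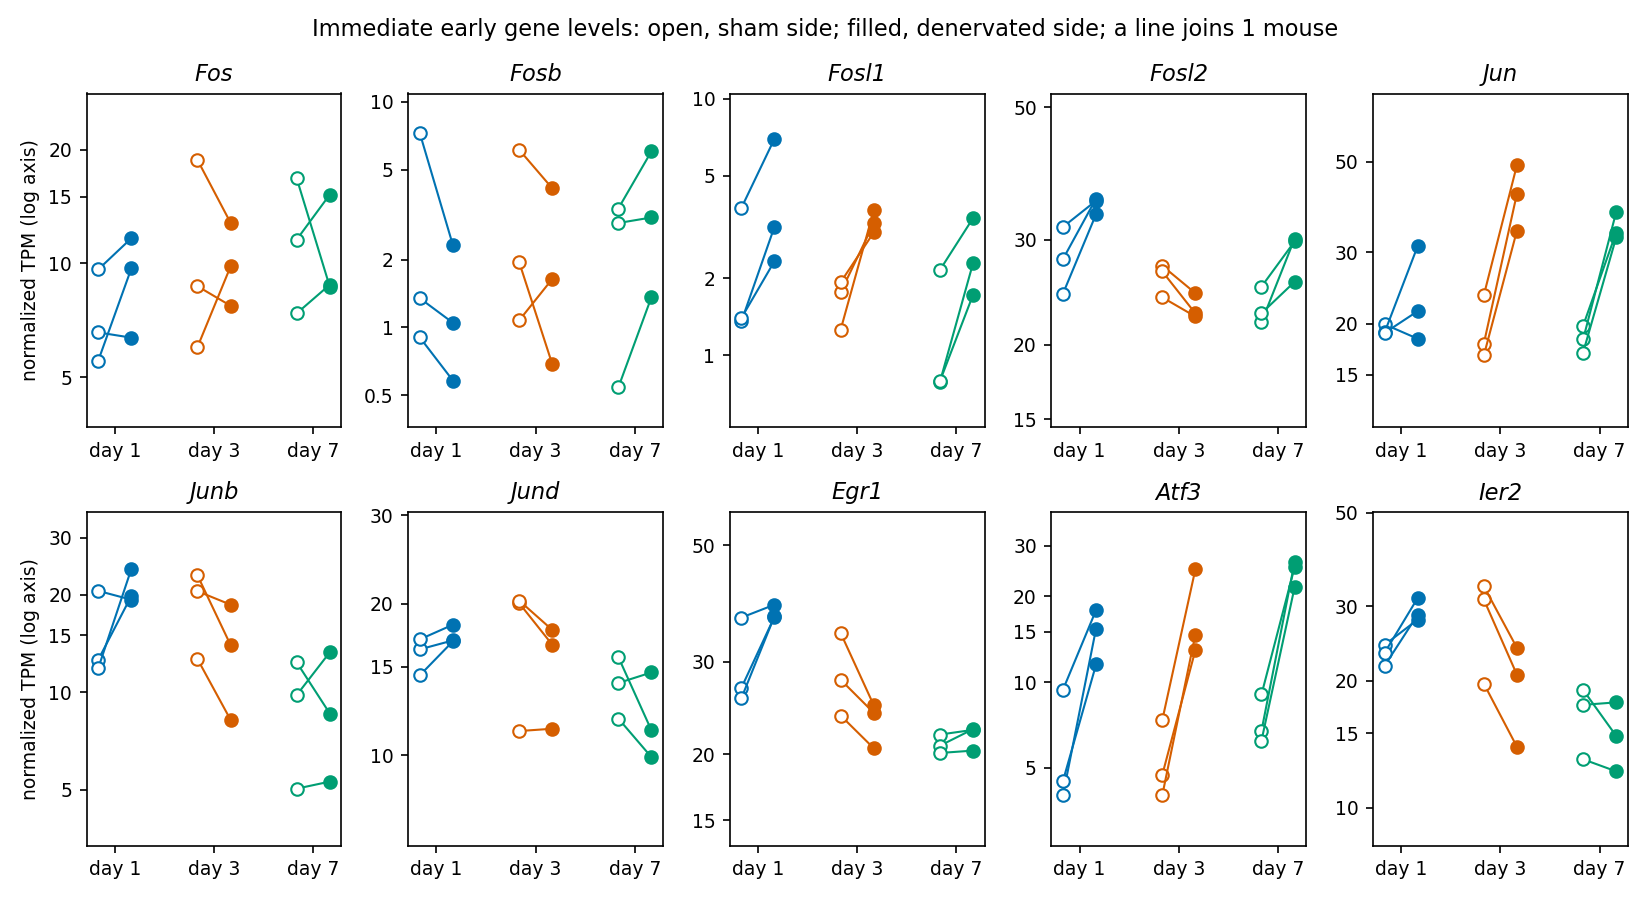
Normalized TPM on a log axis (y) of each member on the sham side (open circles) and the denervated side (filled circles) at days 1, 3 and 7 (x), with a line joining both sides of each of 3 mice per day. All 9 Atf3 lines and all 9 Fosl1 lines rise, the Jun lines rise in each mouse at days 3 and 7, and the Ier2 lines rise in 3 of 3 mice at day 1 and fall in 3 of 3 at day 3.

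Promoter sequences from RefSeq (GRCm38.p6) were matched for 7 of the 10 genes by symbol, and 4 are shown, since Atf3 and Jun carry the difference between the sides described next, while none was called for Fos and Junb. Each is the 250 bases before the annotated start, on the strand of the gene. They are at chr1:191183334-191183583 (minus strand) for Atf3, chr4:95052223-95052472 (minus) for Jun, chr12:85473640-85473889 (plus) for Fos and chr8:84978749-84978998 (minus) for Junb. Capitals mark the motifs found on either strand.
Atf3: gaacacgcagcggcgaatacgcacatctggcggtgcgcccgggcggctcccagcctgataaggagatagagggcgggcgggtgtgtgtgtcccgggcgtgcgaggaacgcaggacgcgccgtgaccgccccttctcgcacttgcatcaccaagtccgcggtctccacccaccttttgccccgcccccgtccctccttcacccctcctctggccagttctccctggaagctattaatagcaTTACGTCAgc
Jun: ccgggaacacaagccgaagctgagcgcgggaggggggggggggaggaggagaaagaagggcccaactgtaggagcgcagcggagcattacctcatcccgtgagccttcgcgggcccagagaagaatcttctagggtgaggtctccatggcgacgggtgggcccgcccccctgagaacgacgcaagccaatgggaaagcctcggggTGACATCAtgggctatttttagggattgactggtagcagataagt
Fos: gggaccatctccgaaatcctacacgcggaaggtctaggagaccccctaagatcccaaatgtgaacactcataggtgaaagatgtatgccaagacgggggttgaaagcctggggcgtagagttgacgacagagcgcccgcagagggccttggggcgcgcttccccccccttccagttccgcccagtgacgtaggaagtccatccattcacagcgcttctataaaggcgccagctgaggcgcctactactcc
Junb: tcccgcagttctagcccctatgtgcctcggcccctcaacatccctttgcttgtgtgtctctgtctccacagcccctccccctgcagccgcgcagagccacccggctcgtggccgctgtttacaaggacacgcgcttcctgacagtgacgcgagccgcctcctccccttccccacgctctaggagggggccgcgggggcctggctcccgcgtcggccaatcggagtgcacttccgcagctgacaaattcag
Searched were the CArG box, which serum response factor binds, the cyclic AMP response element TGACGTCA, the AP-1 site TGAGTCA, and the EGR site as GCGTGGGCG or GCGGGGGCG. None of these was in the 4 windows shown. The share of 32817 promoters holding each in the same 250 bases was 1.47%, 1.55%, 4.46% and 3.06%. Relatives of the response element were added after these sequences had been seen. They were TGACATCA, found in Jun 45 to 38 bases before its start and in 2.93% of promoters, and TTACGTCA, found in Atf3 10 to 3 bases before its start and in 0.445% of promoters. Since both relatives were picked after the windows were seen, they do not set Jun and Atf3 apart from Fos and Junb. The Fos window holds tgacgtag, which also resembles the response element but was not searched. An EGR site (GCGGGGGCG) stood in the windows of Fosl2 and Fosb. The Fosl2 window lies inside the gene, downstream of the start at chromosome 5 position 32135801 of the transcript that held 96.73% of the Fosl2 value. The motifs do not overlap, and a match describes letters and not a bound site. The Atf3 window belongs to the start of transcript Atf3-201, which held 17.45% of the Atf3 value, whereas another transcript, ENSMUST00000195117, held 82.35% and starts upstream of it at chromosome 1 position 191218039.

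The main question was which members differed between the denervated and the sham side. Over all days 3 of the 10 passed the test, and all 3 were higher on the denervated side, namely Atf3, Jun and Fosl1 (limma on log2(TPM + 0.5) with day in the model, Benjamini-Hochberg adjusted p under 0.05 over 14750 genes). Of all genes, 457 or 3.10% passed, 283 of them higher and 174 lower. The median log2 difference of the 10 members was 0.05, beside 0.01 over all genes. The other 7 members had log2 differences between -0.17 and 0.14.

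Atf3 stood out in every mouse. At day 1 it was at 4.02 TPM on the sham side and 15.4 TPM on the denervated side of mouse 1, 9.41 and 17.9 TPM in mouse 2, and 4.51 and 11.5 TPM in mouse 3. At day 3 the pairs were 4.72 and 12.9 TPM, 7.35 and 24.8 TPM, and 4.01 and 14.7 TPM. At day 7 they were 6.75 and 26.3 TPM, 6.24 and 21.5 TPM, and 9.04 and 25.3 TPM. The lowest denervated library lay above the highest sham library, so the sides did not overlap across the 18 libraries, as for 0.142% of genes in this direction. The difference was 1.53 ± 0.17 on the log2 scale (± SE), or 2.89-fold (limma, adjusted p = 0.0001). Both main transcripts took part, for ENSMUST00000195117 was higher on the denervated side in 9 of 9 mice (4.99 ± 2.14 TPM on the sham and 15.7 ± 5.42 TPM on the denervated side, SD, n = 9) and Atf3-201 in 8 of 9 (1.24 ± 1.51 and 3.15 ± 1.29 TPM).

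Jun, the main partner of Fos proteins in AP-1, was nearly level on the sham side and rose after day 1 on the other. At day 1 the sham and denervated sides were at 19.95 and 18.4 TPM in mouse 1, 19.05 and 31.0 TPM in mouse 2, and 19.0 and 21.5 TPM in mouse 3. At day 3 they were at 17.9 and 41.7 TPM, 23.5 and 49.05 TPM, and 16.7 and 33.9 TPM. At day 7 they were at 19.8 and 33.5 TPM, 18.3 and 37.6 TPM, and 17 and 32.6 TPM. At days 3 and 7 each denervated library lay above all 9 sham libraries, as for 2.14% of genes, whereas at day 1 mouse 1 was lower on the denervated side. Over all days the difference was 0.74 ± 0.13 on the log2 scale (limma, adjusted p = 0.0037). With values rescaled to the skeletal muscle markers, the difference was as large but did not pass (limma, adjusted p = 0.87).

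Fosl1, a Fos family member without the transactivation domain of Fos, was low but higher on the denervated side in 9 of 9 mice. Across the 9 sham libraries it had a lowest, median and highest value of 0.788, 1.40 and 3.75 TPM, and across the 9 denervated libraries 1.72, 3.17 and 6.97 TPM. The sides overlapped across mice, but within a mouse the log2 difference ran from 0.53 to 1.24. The difference over all days was 0.82 ± 0.21 on the log2 scale and stood at the threshold (limma, adjusted p = 0.048). It no longer passed when any 1 of 7 mice was left out (adjusted p up to 0.15), the exceptions being day 1 mouse 2 and day 1 mouse 3. Of 9 other settings that gave it a value it passed in 3, namely the smaller pseudocount, the block and no trend, and the adjusted p reached 0.62 with rescaling to the muscle markers. Exons of Fosl1 overlap Ccdc85b on the opposite strand, Jun overlaps Junos, Junb overlaps Prdx2 and Jund overlaps Gm11175, and the library kit does not mark strand, so reads of such pairs cannot be told apart by strand.

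An exact two-sided sign-flip test on the 9 within-mouse differences gave p = 0.0039 for Atf3 and for Fosl1, the smallest p that 9 pairs allow, and p = 0.0078 for Jun, which was higher in 8 of 9 mice. The other 7 members had p from 0.13 to 0.97. An unadjusted p under 0.05 was found for 16.3% of genes. Adjusted over 14750 genes none passed (Atf3 and Fosl1 p = 0.12, Jun p = 0.13, exact sign-flip test). Being higher in 9 of 9 mice, as Atf3 and Fosl1 were, was found for 1.95% of genes.

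**Figure D2:**
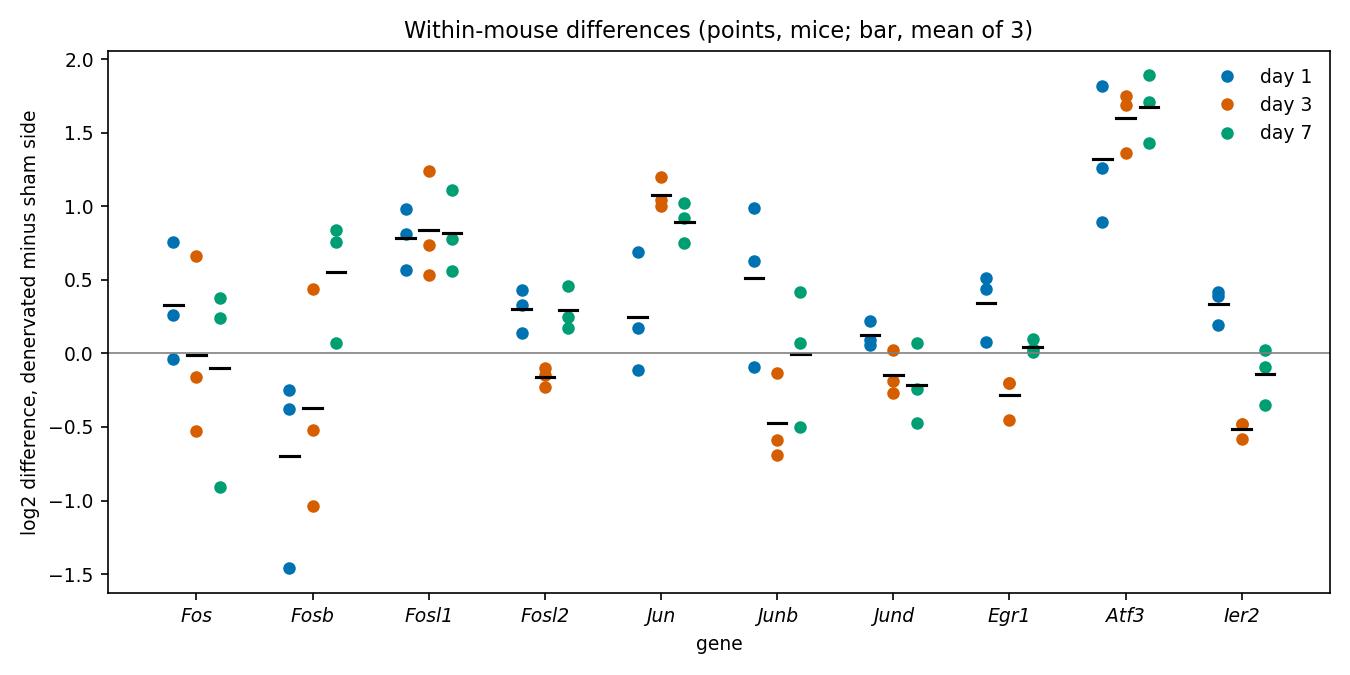
Log2 difference, denervated minus sham side (y), of each member (x) in each mouse, with points coloured by day and a bar at the mean of 3 mice. Atf3 and Fosl1 lie above 0 in all 9 mice, Jun does so at days 3 and 7, and Ier2, Egr1 and Fosl2 lie above 0 at day 1 and below 0 at day 3.

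Summed markers of other cells were also compared between the sides. The summed level of 7 neutrophil markers was higher on the denervated side in 9 of 9 mice, at 26.3 to 988 TPM on the sham side and 97.8 to 2660 TPM on the denervated side, and none of the 7 was at 0 throughout. Of the 6 neutrophil markers tested over all days, 1 was higher and 0 were lower. Their median log2 difference was 0.33 over all days and -0.14 at day 1, so the sum does not stand for each marker. Across the 18 libraries this sum had a Pearson r of 0.68 with Atf3, 0.73 with Jun and 0.47 with Fosl1, over points that share 6 groups. The 4 satellite cell markers summed to 0.933 to 4.98 TPM on the sham side and 1.54 to 18.1 TPM on the denervated side, higher in 7 of 9 mice, and their sum had r of 0.78 with Jun, 0.60 with Atf3 and 0.26 with Fosl1. The 8 macrophage markers (77.4 to 573 and 134 to 830 TPM) were higher in 6 of 9 mice, and the 12 skeletal muscle markers in 3 of 9. The part of these cells in the result was not tested.

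At day 1 no member passed (limma within the 6 libraries of that day), nor did any of 14767 genes (0%). At an unadjusted p under 0.05 there were 3 members, namely Atf3, Ier2 and Fosl2, and 635 genes. With each mouse as a block there were 5 members and 915 genes, and again none passed. On average, 9 of the 10 members were higher on the denervated side, Fosb being the exception, with a median log2 difference of 0.33 beside 0.01 over all genes. Atf3 differed by 1.32 ± 0.33 on the log2 scale (limma, adjusted p = 1.0).

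At day 3 none of the 10 members passed in the unblocked fit, while 217 genes or 1.45% did. Jun (1.08 ± 0.18 on the log2 scale, limma, adjusted p = 0.052) and Atf3 (1.60 ± 0.30, adjusted p = 0.07) were next to the threshold. With each mouse as a block both passed (limma, Jun adjusted p = 0.018, Atf3 adjusted p = 0.015), beside 218 of 14934 genes. On average, 7 members were lower on the denervated side, and the median difference of the 10 was -0.15, beside -0.01 over all genes.

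At day 7 Atf3 (1.67 ± 0.17 on the log2 scale, limma, adjusted p = 0.0072) and Jun (0.89 ± 0.12, adjusted p = 0.017) were higher on the denervated side, and 229 genes or 1.52% passed. Without day 7 mouse 1 or without mouse 2 neither passed, and without mouse 3 only Atf3 did (adjusted p = 0.028). In these fits the adjusted p of Atf3 reached 0.21 and that of Jun 0.31. The remaining members differed by -0.21 to 0.82 on the log2 scale, the upper end being Fosl1.

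The next comparison was whether the denervated minus sham difference changed with time. Atf3 and Fosl1 had similar mean differences at each day, at 1.32, 1.60 and 1.67 for Atf3 and 0.79, 0.84 and 0.82 for Fosl1 on the log2 scale. Between days these differences shifted by 0.28 ± 0.43 for Atf3 and 0.05 ± 0.56 for Fosl1 from day 1 to day 3 (log2, ± SE), which leaves room for sizeable shifts. Jun moved most among the rising genes, by 0.83 ± 0.25 from day 1 to day 3 (limma interaction, unadjusted p = 0.0048, adjusted p = 0.28).

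In Ier2, Egr1 and Fosl2 the denervated side was higher in 3 of 3 mice at day 1 and lower in 3 of 3 at day 3, as for 4.14% of genes. None of the 3 passed between the sides at either day. Ier2 was at 24.3, 23.3 and 21.7 TPM on the sham side of the 3 mice at day 1 and at 27.9, 31.4 and 28.6 TPM on the denervated side, without overlap, as for 5.56% of genes at that day (log2 difference 0.34 ± 0.10, limma, adjusted p = 1.0). At day 3 the sham side was at 19.7, 31.1 and 33.4 TPM and the denervated side at 13.9, 20.7 and 23.9 TPM, lower in each mouse. At day 7 the sides were within 0.35 of each other on the log2 scale. The shift from day 1 to day 3 was -0.85 ± 0.31 (limma interaction, adjusted p = 0.40), and with each mouse as a block it passed (± 0.13, adjusted p = 0.042).

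Egr1 was at 36.4, 26.8 and 25.6 TPM on the sham side at day 1 and at 38.5, 36.5 and 36.6 TPM on the denervated side. At day 3 it was at 23.7, 34.0 and 27.7 TPM and at 20.6, 24.8 and 24.0 TPM. In each mouse the denervated side was thus the higher at day 1 and the lower at day 3, and at day 7 the 6 libraries lay together between 20.1 and 22.3 TPM. The shift from day 1 to day 3 was -0.63 ± 0.20 on the log2 scale (limma interaction, adjusted p = 0.30).

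Fosl2, the steadiest member, was at 31.5, 27.8 and 24.4 TPM on the sham side at day 1 and at 34.8, 35.1 and 33.1 TPM on the denervated side. At day 3 it was at 27.1, 24.0 and 26.5 TPM and at 24.4, 22.3 and 22.6 TPM. At day 7 it was at 21.8, 22.6 and 25.0 TPM and at 30.1, 25.5 and 29.8 TPM. The denervated libraries lay above the sham libraries at day 1 (log2 difference 0.30 ± 0.12, limma, adjusted p = 1.0) and at day 7 (0.29 ± 0.12, adjusted p = 0.40), where 10.4% of genes did so, and within each mouse the denervated side was the lower at day 3. Being lower in 3 of 3 mice at day 3 and higher in 3 of 3 at day 7, as Fosl2 and Egr1 were, was found for 3.22% of genes. The shift was -0.46 ± 0.14 from day 1 to day 3 (limma interaction, adjusted p = 0.30) and 0.45 ± 0.14 from day 3 to day 7 (adjusted p = 0.64).

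Over the whole table, such shifts were called for 18 genes or 0.122% from day 1 to day 3, for 24 or 0.163% from day 1 to day 7, and for 0 (0%) from day 3 to day 7, and no member was among them. With the block, 68, 21 and 1 genes were called, Ier2 among the 68. At an unadjusted p under 0.05, 4 members shifted from day 1 to day 3 without the block (Jun, Fosl2, Egr1 and Ier2), 1 from day 1 to day 7 and 1 from day 3 to day 7, beside 1359, 1055 and 1013 genes.

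Junb, Jund and Fos followed neither pattern through. Junb was higher on the denervated side in 2 of 3 mice at day 1 and lower in 3 of 3 at day 3 (log2 differences of -0.69 to -0.13). Jund differed by -0.47 to 0.22 on the log2 scale over the 9 mice, and Fos by -0.91 to 0.76, higher in 5 of 9. Fosb was lower on the denervated side in 3 of 3 mice at day 1 (-1.46 to -0.25) and higher in 3 of 3 at day 7 (0.07 to 0.84), as for 1.99% of genes, a shift of 1.25 ± 1.08 (log2, ± SE, limma, adjusted p = 0.86). The level of Fos over the 9 libraries of a side was 10.1 ± 4.77 TPM (sham) and 10.1 ± 2.73 TPM (denervated).

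Each side was also followed over time. On the sham side none of the members passed between any 2 days, with 0 genes (0%) called from day 1 to day 3, 144 (0.976%) from day 1 to day 7 and 0 (0%) from day 3 to day 7. At an unadjusted p under 0.05 (limma) there were 0, 3 and 3 members and 1983, 2691 and 1939 genes.

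On the denervated side 3 members passed from day 1 to day 3, where 1520 genes or 10.3% did, 7.30% of genes rising and 3.00% falling. Jun rose from 23.6 ± 6.59 to 41.5 ± 7.59 TPM (SD, n = 3), by 0.82 ± 0.18 on the log2 scale (limma, adjusted p = 0.011). Egr1 fell by 0.68 ± 0.14 on that scale (adjusted p = 0.0082). Fosl2 fell from 34.4 ± 1.12 to 23.1 ± 1.1 TPM, a log2 change of -0.56 ± 0.10 (limma, adjusted p = 0.0043). Without day 1 mouse 3 or day 3 mouse 2 the call of Jun was lost (adjusted p up to 0.057).

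From day 1 to day 7, 4 members passed among 3069 genes or 20.8%, with 12.8% of genes rising and 8.03% falling. Junb, whose product can oppose that of Jun, fell by 1.25 ± 0.38 on the log2 scale (limma, adjusted p = 0.031), Ier2 by 0.97 ± 0.22 (adjusted p = 0.0077) and Egr1 by 0.77 ± 0.14 (adjusted p = 0.0022). Jun rose by 0.57 ± 0.18 (adjusted p = 0.035). On the sham side the same log2 changes of Junb, Ier2 and Egr1 were -0.74, -0.49 and -0.47, and none passed (limma, adjusted p = 0.32, 0.25 and 0.097). The changes on the 2 sides were not shown to differ (limma interaction, adjusted p = 0.88, 0.81 and 0.81). From day 3 to day 7 none passed among 44 genes (0.298%), with 1 member (Fosl2) and 1830 genes at an unadjusted p under 0.05. The calls of Egr1 and Ier2 held without any 1 mouse. That of Junb was lost without any of the day 1 mice or without day 7 mouse 1 or 3 (adjusted p up to 0.10), and that of Jun without day 1 mouse 1 or 3 or any day 7 mouse (adjusted p up to 0.13).

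The muscle content of the punch moved with time too: of 12 skeletal muscle markers, 7 rose on the denervated side from day 1 to day 7, with a median log2 change of 1.41. On the sham side their median change was 1.23, with 0 called (limma). Other cells did so on the denervated side, where 4 of 8 macrophage markers (median 1.57), 4 of 5 adipocyte markers (2.20) and 3 of 8 fibroblast markers (1.1) rose and 0 fell, while 0 of 10 keratinocyte markers rose and 1 fell. On the sham side the medians were 0.72 for macrophage, 2.04 for adipocyte, 0.98 for fibroblast and -0.51 for keratinocyte markers. There 1 fibroblast marker was called higher, and 0 of the other 3 lists were called (limma). Rescaled to the skeletal muscle markers, the median of all genes on the denervated side from day 1 to day 7 moved from 0.02 to -1.54. All 10 members then lay below 0 on that side and 7 were called lower, Jun no longer rising. Relative to that median, 4 members lay above and 6 below, as in the values as deposited. From day 1 to day 3 the same rescaling left 0 members called, although the log2 changes of Fosl2 (-1.36) and Egr1 (-1.48) were larger than as deposited, and Jun was at 0.03. The split of the calls from day 1 to day 7, 1 higher and 3 lower as deposited, was 0 and 5 with values rescaled to an equal sum, and 1 and 4 with median-of-ratios factors. The share of all genes called under these scalings is not given here, so such counts do not single out the members. The part of muscle or other cell content in the falls of Egr1, Ier2 and Junb was not tested. Across the 18 libraries the muscle marker sum had a Pearson r of -0.77 with Egr1, -0.50 with Ier2, -0.35 with Junb and -0.59 with Fosl2, and of 0.24 with both Jun and Atf3. With Egr1 the macrophage sum had r of -0.75, the adipocyte sum -0.76 and the keratinocyte sum 0.68.

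**Figure D3:**
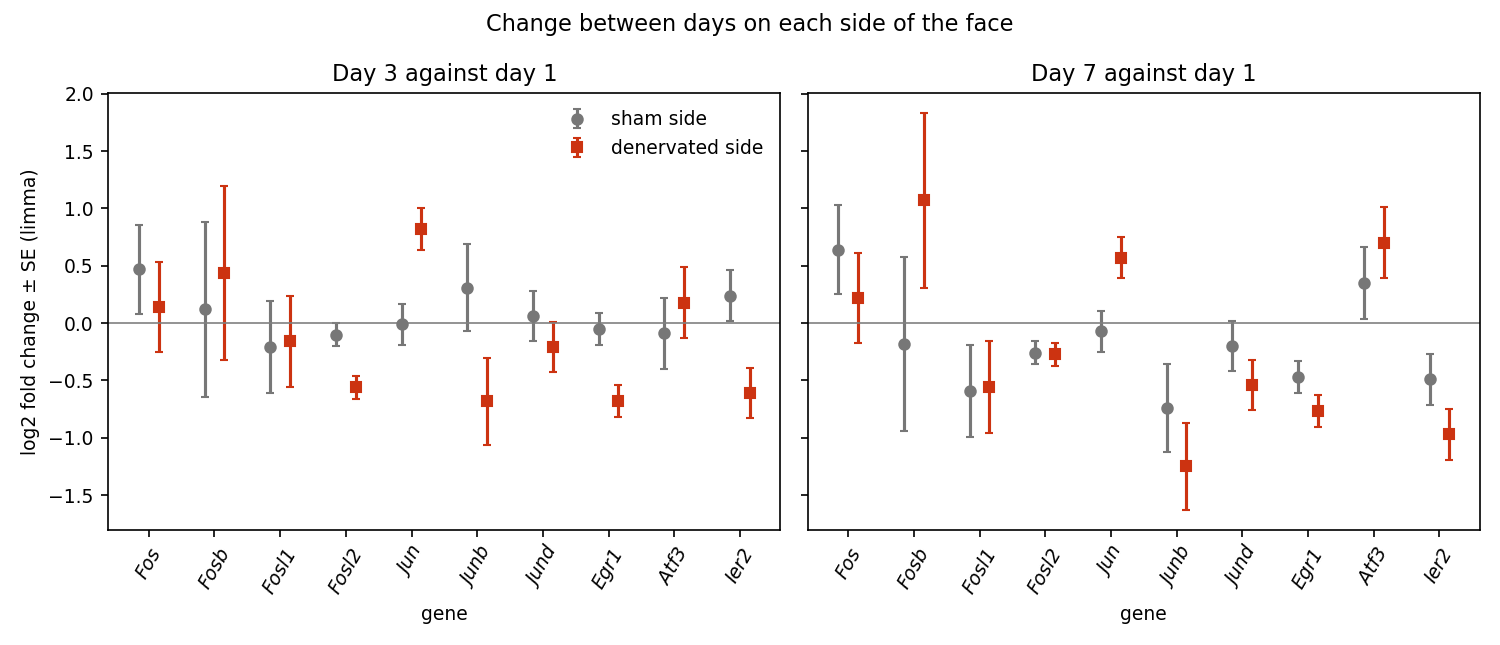
Log2 fold change with SE (y) of each member (x) from day 1 to day 3 (left) and from day 1 to day 7 (right), on the sham side (grey circles) and the denervated side (red squares), n = 3 libraries per group. Jun lies above 0 on the denervated side only, at 0.82 and 0.57, while Egr1, Ier2 and Junb lie below 0 on that side in both panels; with rescaling to the muscle markers Jun lies below 0 at day 7.

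The members fell into sets that varied together over the 18 libraries. There Junb, Jund, Egr1 and Ier2 had Pearson r of 0.63 to 0.92 with each other on log2(TPM + 0.5), the highest being Junb with Ier2. Atf3, Jun and Fosl1 had r of 0.55 to 0.78, and Fos and Fosb had r of 0.68. Between Atf3 or Jun and Ier2 it was -0.33 and -0.29. With group means removed, Jund with Ier2 stood at 0.92 and Fos with Fosb at 0.78, so these pairs varied together within groups too, whereas Jun with Atf3 stood at 0.39. Over the 9 within-mouse differences Egr1 with Ier2 reached 0.93 and Jun with Ier2 -0.70. Junb, Jund, Egr1 and Ier2 had r of 0.48 to 0.93 with each other there. Jun with Atf3 stood at 0.00, Fosl1 with Jun at 0.06, Fosl1 with Atf3 at 0.22 and Fos with Fosb at -0.05. The differences of the last pairs thus hardly varied together. These values describe points that share libraries, groups and depth.

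**Figure D4:**
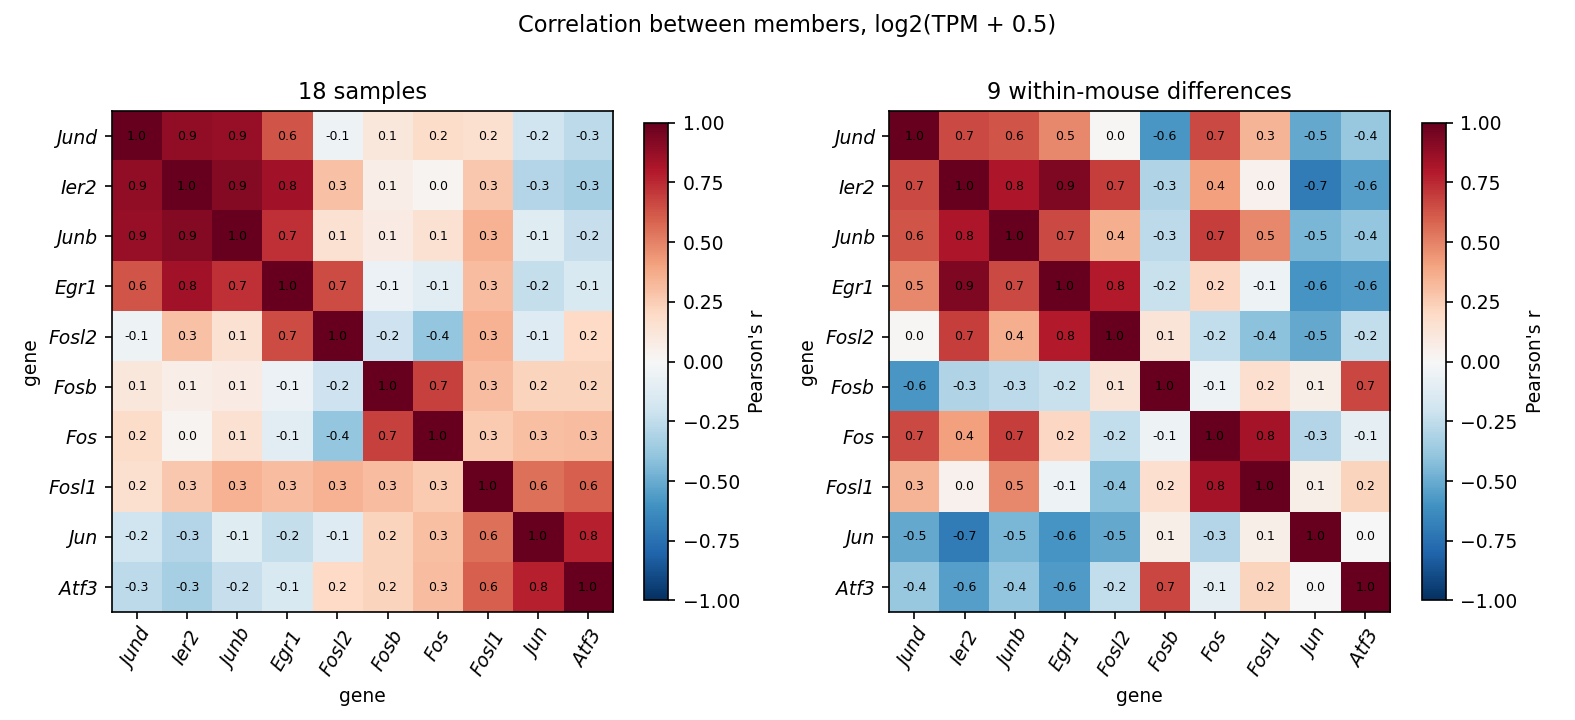
Pearson's r between members (both axes) over 18 libraries (left) and over 9 within-mouse differences (right), with the colour scale from -1 to 1. Junb, Jund, Egr1 and Ier2 form a block of high r at left (0.63 to 0.92), and Jun and Ier2 are at -0.70 at right.

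The genes outside the list most like the mean z-score of the 10 members over the 18 libraries were Gm49322 and Pi4k2a (Pearson r = 0.80 each, Spearman rho = 0.78 and 0.83), then Midn, Pla2g6, Sh3bp2, Gm2564, Furin and Mbd3 (r = 0.73 to 0.78). Single members were looked up after their values were seen. Atf3 and Jun differed between the sides, so genes that also differ rank high with them. Myog, for example, had a mean of 3.53 TPM on the sham and 104 TPM on the denervated side. An r within groups is not given for these genes. Most like Atf3 were Gdf5 (r = 0.88), Smad3 (0.87) and, at 0.86, Myog, Musk and Arpp21. Musk encodes a receptor kinase of the neuromuscular junction. Jun was most like Gadd45a, a stress-induced gene (r = 0.96), Runx1 (0.94) and Tnfrsf12a (0.94), and Ier2 was most like Unc45a, Rtkn and Rnf126 (r = 0.95 each).

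Of 34 other early response genes, 31 were tested over all days. On the denervated side 1 was higher and 0 were lower, with a median log2 difference of 0.03, beside 3.10% of all genes called. The gene called was Btg2, an antiproliferative gene, at 0.48 ± 0.08 (limma, adjusted p = 0.003). With each mouse as a block, 1 of these early response genes was higher and 1 lower, beside 518 of 14750 genes called. At day 7 Ccn1, which encodes a matrix protein, was higher (22.7 ± 2.07 TPM on the sham and 52.4 ± 2.82 TPM on the denervated side, SD, n = 3, adjusted p = 0.007 by limma). At that day the orphan nuclear receptor gene Nr4a1 was lower, at 19.5 ± 1.52 and 9.14 ± 0.509 TPM (limma, adjusted p = 0.0098). The block called 1 early response gene higher and 2 lower at day 7, beside 327 of 15072 genes. At days 1 and 3 none passed (limma, 5 and 3 with an unadjusted p under 0.05). Of all genes, 0%, 1.45% and 1.52% passed at days 1, 3 and 7. On the denervated side 7 of the 31 fell from day 1 to day 3 and 0 rose, the largest change being Ier3 (-0.83 ± 0.15 on the log2 scale), with Egr2, Zfp36, Myc and Sgk1. From day 1 to day 7, 7 fell and 2 rose. Of all 14750 genes, 443 fell and 1077 rose on that side over the first of these intervals, and 1185 and 1884 over the longer one. On the sham side 0 of the 31 were called from day 1 to day 3. From day 1 to day 7 only Ier3 was called there (-0.99 ± 0.15, limma, adjusted p = 0.011). Over that interval the median log2 change was -0.21 on the sham and -0.41 on the denervated side. At an unadjusted p under 0.05 (limma) there were 15 and 16 of the 31.

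Among 15 other bZIP factors tested, Crem, a partner in cyclic AMP responses, was higher over all days (0.56 ± 0.11 on the log2 scale, limma, adjusted p = 0.012) and 0 were lower. With each mouse as a block, 1 of these factors was higher and 1 lower. Of 19 upstream kinases and factors 1 passed, Elk1, a ternary complex factor that works with serum response factor at early gene promoters. It was higher over all days (0.53 ± 0.11, adjusted p = 0.01) and at day 3 (4.27 ± 0.394 TPM on the sham and 8.10 ± 0.786 TPM on the denervated side, SD, n = 3, limma, adjusted p = 0.036). Of 12 genes listed as AP-1 targets, 2 were higher over all days and 1 lower. For these lists, the share of all genes called was 3.10% over all days and 1.45% at day 3. Timp1, a metalloproteinase inhibitor, was higher by 1.69 ± 0.30 on the log2 scale, and the chemokine gene Ccl2 by 0.95 ± 0.24. Vegfa was lower on the denervated side by 0.74 ± 0.18 (limma, adjusted p = 0.0048, 0.041 and 0.033 for Timp1, Ccl2 and Vegfa). With each mouse as a block Ccl2 did not pass (limma, adjusted p = 0.08), though 2 AP-1 targets were still higher over all days and 1 lower. At day 3 the block called 2 AP-1 targets higher, where the unblocked fit called 1, beside 218 of 14934 genes. At day 7 it called 2 higher and 1 lower, where the unblocked fit called 0, beside 327 of 15072 genes. Over time Vegfa rose on the denervated side from day 1 to day 7 (1.02 ± 0.33, limma, adjusted p = 0.041), as 12.8% of genes did. Its sham mean was 75.9 TPM at day 1 and 165 TPM at day 7. None of the 10 integrated stress response genes, a pathway that can raise Atf3 through Atf4, passed over all days, with a median of 0.00 (limma, 3 with an unadjusted p under 0.05). With each mouse as a block 1 was higher and 1 lower. On the denervated side 3 of them, Atf4, Asns and Sesn2, fell from day 1 to day 3 (log2 change -0.62, -0.59 and -0.51). From day 1 to day 7, 4 fell, and the shares of all genes that fell were 3.00% and 8.03%. On the sham side 0 were called over either interval. The median log2 change from day 1 to day 7 was -0.21 there and -0.39 on the denervated side. The part of this pathway in the Atf3 difference was not tested.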

How the data were processed

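RNA of 18 punches of skin and muscle was sequenced from unstranded TruSeq v2 libraries. The authors called bases with bcl2fastq 2.17.1.14, removed duplicate reads without molecular identifiers, trimmed the rest, and quantified GRCm38 cDNA with kallisto 0.43.1 and sleuth; removal of duplicates can lower high values. The deposited signal values are TPM per transcript, normalized between samples, and hold no counts. Of these transcripts 98.38% matched GENCODE M21 and were summed to genes. Read numbers were estimated from whole-read steps in low values: 77.7% to 89.1% of those used lay within 0.1 of a whole read, so depths are approximate, and precision rests on the spread between 3 mice. Coverage intervals were not computed.

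Genes at 1 TPM or more in 47% of the samples of a fit were tested on log2(TPM + 0.5) with limma 3.58.1 in R 4.3.3 (trend), adjusted by Benjamini-Hochberg over all genes tested. All days were fitted with day as covariate, single days alone, and interactions and time courses in 1 fit of 6 groups. These fits, as in the study's methods, had no block. Both sides of a mouse come from 1 animal by the titles. Their residuals correlated with r of 0.16 to 0.57 in the 9 mice. For day 7 mouse 1 this r (0.20) was below the largest with another mouse of that day (0.22). The fit with mouse as a block is given where it changed the call of a member, and for the other lists as counts where these changed. Steps were tested on simulated data. All members were described, list genes were named if called (at most 5 by size per list and comparison), and 8 alike genes by Pearson r. The members and lists were chosen with earlier results of these data known. Alternatives were other pseudocounts (0.1 and 1), filters and scalings, single transcripts, a block, no trend, and leaving out each mouse. For day 7 mice, column and title numbers differ, and columns were matched to titles by day, side and sequencing sample number.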

Additional observations from a re-analysis of the deposited data

Results flagged for a closer look

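The genes Ier2, Egr1 and Fosl2 were higher on the denervated side in each of 3 mice at day 1 and lower in each of 3 at day 3, as were 4.14% of genes. The difference between these effects was -0.85 for Ier2, -0.63 for Egr1 and -0.46 for Fosl2 on the log2 scale, and none passed in the unblocked limma interaction (adjusted p = 0.40, 0.30 and 0.30). With each mouse as a block that of Ier2 passed (adjusted p = 0.042) and those of Egr1 (0.11) and Fosl2 (0.16) did not.

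Fosl2 and Egr1 were lower on the denervated side in 3 of 3 mice at day 3 and higher in 3 of 3 at day 7, as were 3.22% of genes. The shifts were 0.45 and 0.33 on the log2 scale and did not pass (limma interaction, adjusted p = 0.64 and 0.79). At day 7 the Egr1 differences were only 0.01 to 0.10.

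Fosb was lower on the denervated side in 3 of 3 mice at day 1 and higher in 3 of 3 at day 7 (1.99% of genes), a difference of 1.25 on the log2 scale (limma interaction, adjusted p = 0.86). Fosb rested on 20 to 360 reads per library. None of the 10 members had a mouse whose difference stood apart from the other 8 by Dixon's gap criterion.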

How the results depend on the processing

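Taking the differences between the sides, the called changes over time and the shifts with an unadjusted p under 0.05, 589 log2 values of members under another setting kept their direction and call, 13 lost a call, 10 gained one and 7 changed sign. Those 7 were Junb over all days (-0.0028 with median-of-ratios factors and -0.0011 with an equal sum, the same for its mean within-mouse difference), Junb at day 7 (0.0029 with an equal sum), and with rescaling to the muscle markers Egr1 at day 7 (-0.10) and Jun on the denervated side from day 1 to day 7 (-1.07). Over every comparison, called or not, rescaling to the muscle markers changed the sign of 24 of 130 log2 values. They included Fos (-1.36), Fosb (-0.22) and Atf3 (-0.92) on the denervated side from day 1 to day 7, and Fos (-0.64), Fosb (-0.19) and Atf3 (-0.60) from day 1 to day 3. The cause was not tested.

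The number of members called over all days fell from 3 to 1 with rescaling to the muscle markers and to 2, Atf3 and Jun, with pseudocount 1, values above 0, a minimum of 5, median-of-ratios factors, an equal sum or single transcripts. At day 3 it went from 0 to 1 with a minimum of 5, an equal sum or single transcripts, and to 2 with rescaling to the muscle markers, the replicate block or 1 fit of all 18 samples. At day 7 it went from 2 to 1 with an equal sum or rescaling to the muscle markers. The replicate block called 1 member for the shift from day 1 to day 3 and, besides Jun and Atf3 at day 3, changed no other call of a member. Rescaling to the muscle markers called 7 on the sham side and 7 on the denervated side from day 1 to day 7. On the denervated side it called 0 from day 1 to day 3. The median log2 change of all genes from day 1 to day 7 was then -1.34 (sham) and -1.54 (denervated). These 7 calls per side thus do not single out the members, and the share of all genes called is not given here.

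Leaving out 1 mouse at a time kept 345 such values, took the call from 24 and moved some differences near 0 across it. Over all days, and likewise for the mean within-mouse difference, Fos ranged from -0.0138 to 0.195, Junb from -0.111 to 0.0989 and Egr1 from -0.0233 to 0.0962 on the log2 scale. At day 3 Fos ranged from -0.348 to 0.251, and at day 7 Fos from -0.339 to 0.309 and Junb from -0.217 to 0.243. It gave 0 to 1 members at day 7 and 2 to 5 on the denervated side from day 1 to day 7. With a minimum of 5, Fosb and Fosl1 were not tested. With 3 mice a day and 14 to 175 reads behind Fosl1, small differences in the low genes may have been missed. The size of difference that could be detected was not computed.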
